A study of Tupaia belangeri chinensis with 36 samples.

Results

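The miR-200 and miR-141 family of microRNAs (miRNAs) was followed across 3 male reproductive tissues of the Chinese tree shrew, Tupaia belangeri chinensis, a small mammal close to primates: the head of the epididymis (caput), its tail (cauda), and the testis. Its members were the 7 mouse-named entries mmu-miR-141-3p, mmu-miR-141-5p, mmu-miR-200a-3p, mmu-miR-200a-5p, mmu-miR-200b-3p, mmu-miR-200b-5p and mmu-miR-200c-3p together with mmu-miR-429-3p and mmu-miR-429-5p, written below without the mouse prefix, which makes 9 of the 1210 miRNA entries counted. The entries were chosen by name and not by their values, though with earlier results of these data known. Mature miR-200c-5p was also listed but lay outside the rule, so it is described only among the miRNAs most like the family.

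The animals were sexually mature males of 1.5 to 2 years, taken in the reproductive season (R, April 2024) or in the non-reproductive season (NR, December 2023), with no other treatment or genotype given. The 6 groups were CAPUT-R, CAPUT-NR, CAUDA-R, CAUDA-NR, TESTIS-R and TESTIS-NR, each labelled with 3 biological replicates, and small RNA was read from the total RNA of the tissue. The labels do not say whether equal numbers in different tissues are 1 animal. Each season was collected at 1 time, so season and collection date cannot be told apart.

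In human and mouse the family is made from a pair of gene clusters, of which one carries miR-200b, miR-200a and miR-429 and the other miR-200c and miR-141. The 3p strands fall into a pair of seed groups that cut across the clusters: miR-200b-3p, miR-200c-3p and miR-429-3p share a seed, the short stretch that pairs with target messenger RNAs, and miR-200a-3p and miR-141-3p share another. The family is abundant in epithelial cells, where it is known for repressing ZEB1 and ZEB2, which are themselves repressors of E-cadherin and of the family. The epididymal duct is lined by a continuous epithelium in which sperm mature and, in the cauda, are stored. The tree shrew reference table of RefSeq (TupChi_1.0) lists MIR141, MIR200A, MIR200B and MIR200C. A record named MIR429 was searched for there and not found. Target genes were not analysed here.

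Of the 18 small RNA columns, 16 were separate measurements. CAPUT-NR 2 and TESTIS-NR 2 held the average of the remaining columns in the same group, to within 0.5 counts, at 100% of miRNAs, against at most 5.35% in any other column, and were left out, which leaves 2 libraries in each of those groups and 3 in the others. miRNA totals of the measured libraries ran from 2166152 to 14756858 counts, the testis libraries being the shallowest at 2166152 to 4800500. Some libraries stood apart in marker miRNAs of cell types. A list of germ and ciliated cell miRNAs (the miR-34b, miR-34c and miR-449 entries) summed to 5713, 7859 and 7994 CPM (counts scaled to a common library size, here by the library's miRNA total) in TESTIS-R, against 341 CPM in TESTIS-NR 1 and 4704 CPM in TESTIS-NR 3. TESTIS-NR 1 thus lay within the epididymal range of 324 to 1254 CPM for that list. CAPUT-R 2 had 41448 CPM of the endothelial list and 703 CPM of the erythrocyte list, where the other caput libraries had 5349 to 16433 CPM and 90.8 to 156 CPM.

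The family was among the most abundant miRNAs of the epididymis and scarce in the testis. Its 9 members together took 9.11%, 12.1% and 10.7% of all miRNA counts in CAPUT-R and 9.66% and 10.3% in CAPUT-NR. In the cauda they took 9.66%, 6.47% and 7.68% in CAUDA-R and 8.62%, 6.27% and 7.71% in CAUDA-NR. The testis libraries held 0.224%, 0.0812% and 0.0210% in TESTIS-R and 0.356% and 0.0282% in TESTIS-NR. The lowest epididymal library, CAUDA-NR 2, was 17.6 times above the highest testis library, TESTIS-NR 1. In whole tissue, fewer epithelial cells and less of a miRNA per cell cannot be told apart.

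The order of the group means of the summed family was CAPUT-R, CAPUT-NR, CAUDA-R, CAUDA-NR, TESTIS-NR and TESTIS-R, from high to low. Neighbours in that order overlapped except at a pair of steps. CAPUT-NR lay above CAUDA-R by a few CPM, with a lowest value of 96617 CPM against a highest of 96611 CPM. CAUDA-NR lay above TESTIS-NR by a wide gap, with a lowest value of 62709 CPM against a highest of 3558 CPM.

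**Figure D1:**
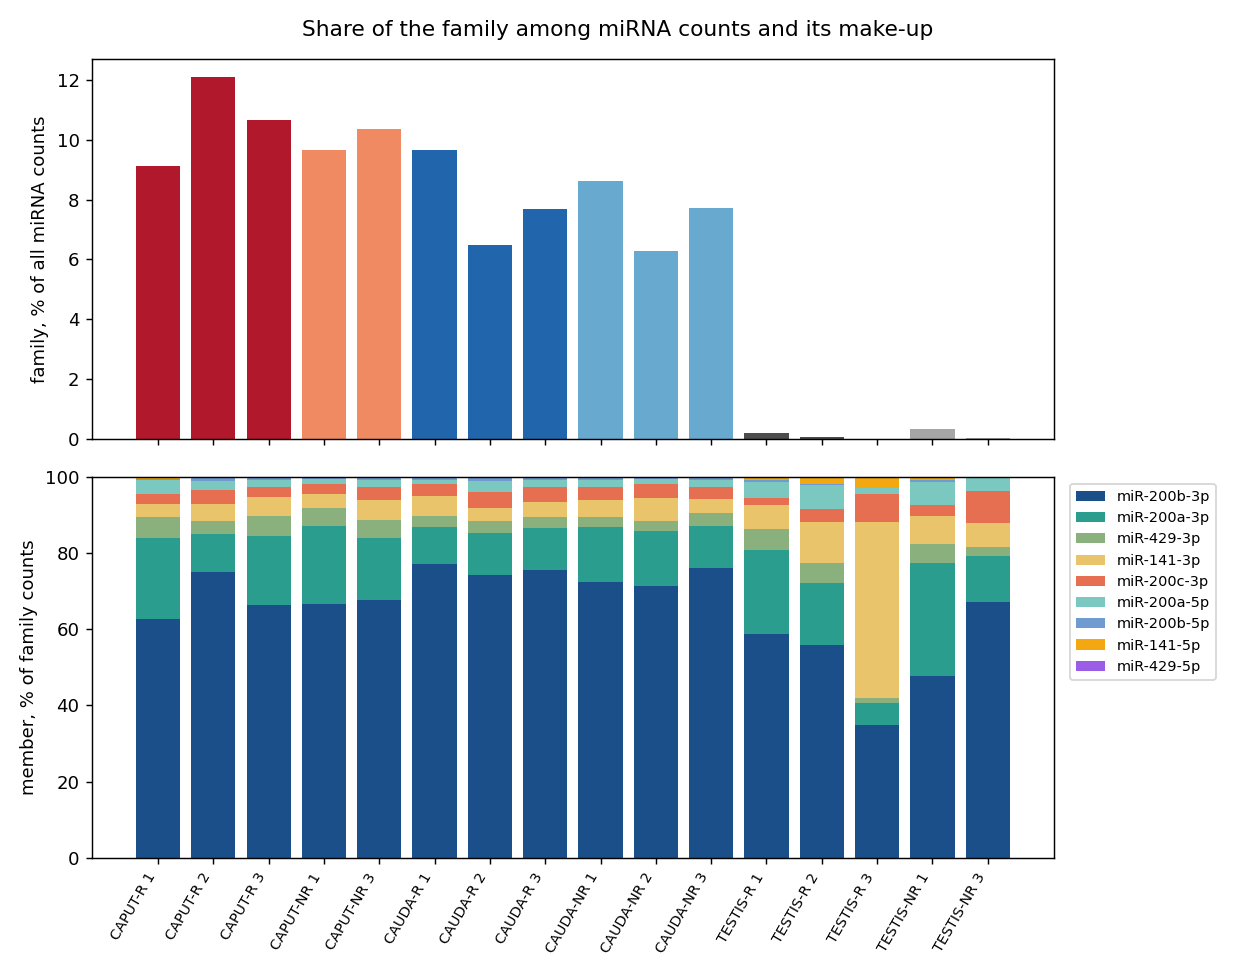
Top, the 9 members as a percentage of all miRNA counts in each of the 16 measured libraries; bottom, each member as a percentage of the family's counts in that library. The epididymal bars lie between 6.27% and 12.1% and the testis bars at or under 0.356%, and miR-200b-3p is the largest segment everywhere except in TESTIS-R 3.

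One strand made up most of the family. miR-200b-3p, the mature strand of the miR-200b hairpin that carries the shared seed with miR-200c-3p and miR-429-3p, held 62.8% to 77.1% of family counts in the 11 epididymal libraries. It ranked between the 3rd and the 6th most abundant of all miRNA entries in every epididymal library, and between the 49th and the 168th in the testis. miR-200a-3p, its cluster neighbour with the other seed, came next with 9.97% to 21.3% of family counts in the caput and 9.70% to 14.6% in the cauda. miR-141-3p, miR-200c-3p and miR-429-3p each held 2.48% to 6.04% in the epididymis. The 5p strands were minor there: miR-200a-5p held 1.27% to 3.47%, miR-141-5p and miR-200b-5p at most 0.565%, and miR-429-5p at most 0.0222%.

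Levels of the dominant strand varied little within the epididymis and widely within the testis. miR-200b-3p had 57153, 90684 and 70853 CPM in CAPUT-R and 64440 and 70071 CPM in CAPUT-NR. It had 74482, 48095 and 58105 CPM in CAUDA-R and 62528, 44692 and 58697 CPM in CAUDA-NR. TESTIS-R had 1314, 453 and 73.4 CPM, and TESTIS-NR had 1699 and 189 CPM. The highest and the lowest epididymal libraries differed 2.03 times, the highest and the lowest testis libraries 23.1 times, and the lowest epididymal library was 26.3 times above the highest testis library.

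miR-200a-3p had a wider gap between the segments. CAPUT-R had 19354, 12071 and 19331 CPM and CAPUT-NR had 19696 and 16798 CPM. CAUDA-R had 9367, 7162 and 8468 CPM and CAUDA-NR had 12400, 9127 and 8444 CPM. Every caput library except CAPUT-R 2 lay above every cauda library. In the testis it had 494, 133 and 12.0 CPM in TESTIS-R and 1054 and 34.1 CPM in TESTIS-NR, 87.8 times from the lowest to the highest.

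miR-429-3p, the third member of that cluster, separated the segments completely. It had 5034, 4270 and 5378 CPM in CAPUT-R and 4504 and 4956 CPM in CAPUT-NR. It had 2823, 1978 and 2175 CPM in CAUDA-R and 2186, 1684 and 2615 CPM in CAUDA-NR. The lowest caput library was thus above the highest cauda library. Testis values were 125, 42.7 and 2.77 CPM in TESTIS-R and 176 and 6.76 CPM in TESTIS-NR.

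The 3p strands of the other cluster overlapped between the segments. miR-141-3p had 3077, 5268 and 5452 CPM in CAPUT-R and 3692 and 5273 CPM in CAPUT-NR, and its cauda libraries ran from 2253 to 5034 CPM. miR-200c-3p had 2481, 4684 and 2761 CPM in CAPUT-R and 2399 and 3505 CPM in CAPUT-NR, and its cauda libraries ran from 2183 to 3105 CPM. In the testis miR-141-3p had 139, 88.3 and 96.9 CPM in TESTIS-R and 260 and 17.8 CPM in TESTIS-NR. Testis levels of miR-200c-3p were 39.7, 27.1 and 15.7 CPM in TESTIS-R and 111 and 23.1 CPM in TESTIS-NR. Both kept a gap between epididymis and testis: the lowest epididymal value was 8.68 times the highest testis value for miR-141-3p and 19.6 times for miR-200c-3p.

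Of the 5p strands, miR-200a-5p ran from 844 to 3161 CPM in the epididymis and from 3.23 to 214 CPM in the testis. miR-141-5p ran from 167 to 452 CPM and miR-200b-5p from 215 to 676 CPM in the epididymis. Some testis libraries held none: miR-141-5p had 0 counts in TESTIS-NR 3 and miR-200b-5p had 0 in TESTIS-R 3 and TESTIS-NR 3, where 3 counts, the upper limit that a count of 0 allows, come to 1.38 CPM in TESTIS-R 3 and 0.845 CPM in TESTIS-NR 3. miR-429-5p was near the limit of detection, with 3.82 to 21.5 CPM in the epididymis and 1 count in all testis libraries together, in TESTIS-NR 1. Such limits cover counting error only.

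**Figure D2:**
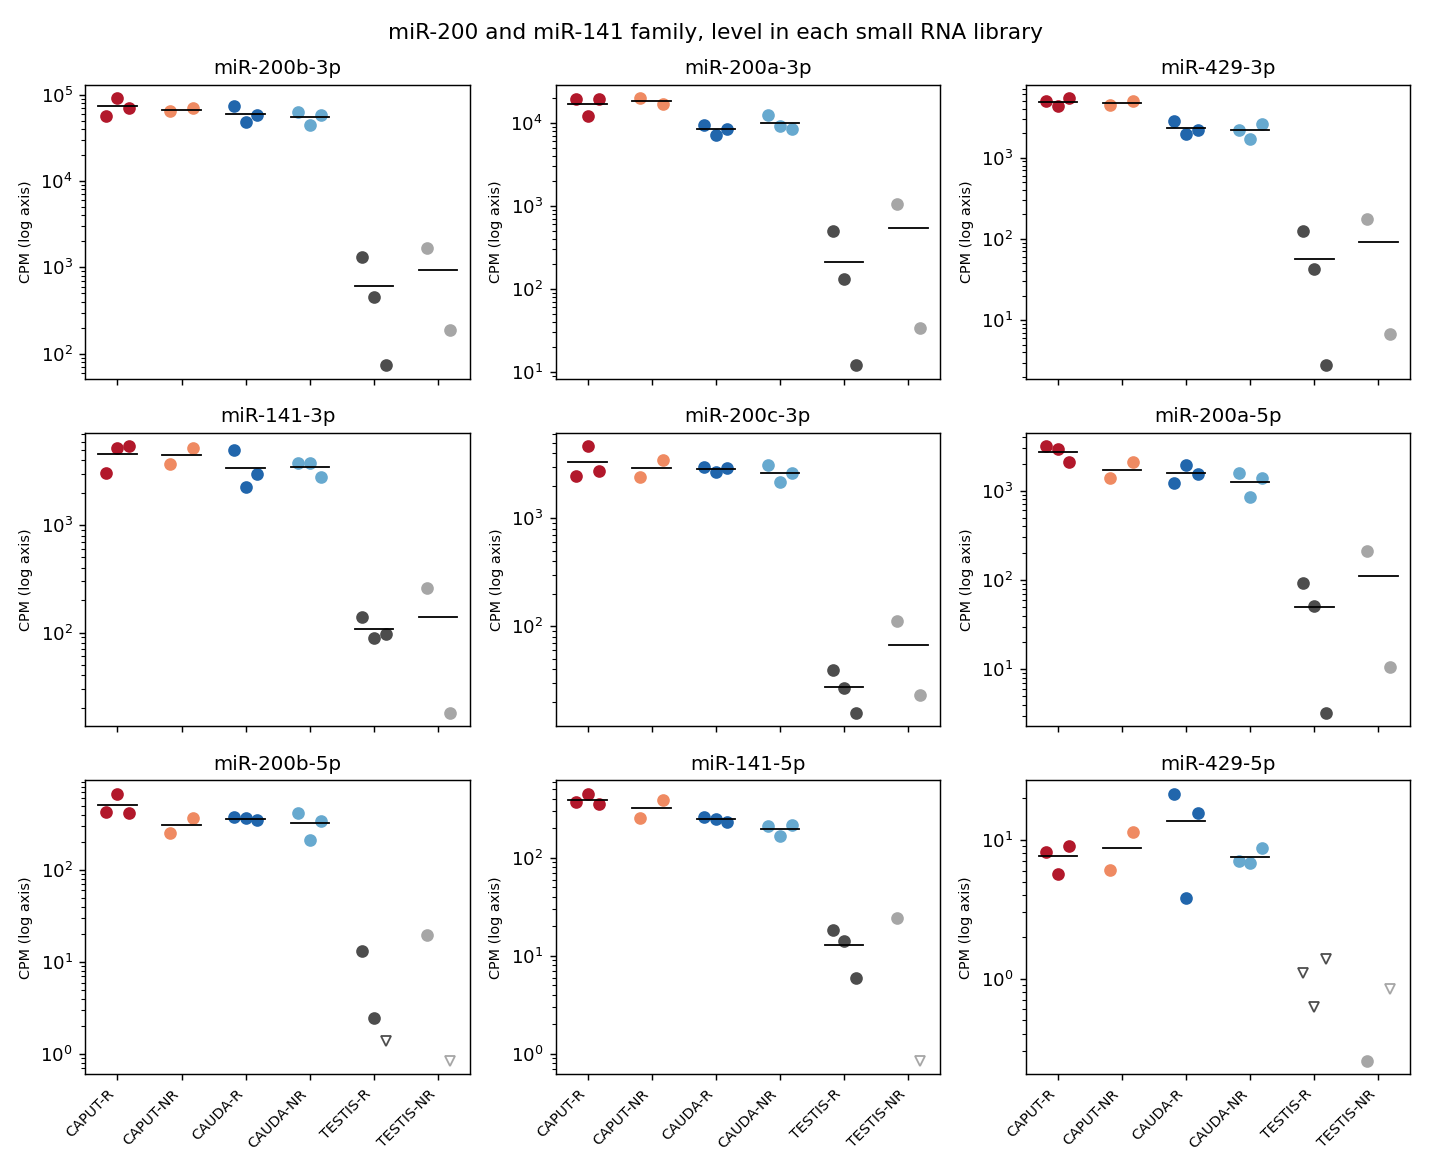
Level of each member in CPM of the miRNA total, on a log axis that differs between panels, in each library of the 6 groups; horizontal lines are group means and open triangles mark libraries with 0 counts, drawn at 3 counts. In every panel the epididymal points lie above the testis points, and miR-429-3p also splits caput (4270 to 5378 CPM) from cauda (1684 to 2823 CPM).

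The first comparison asked how the segments of the epididymis differed from the testis. All miRNAs were fitted together with edgeR's quasi-likelihood test after TMM scaling, which sets libraries to the bulk of their miRNAs, with season as a covariate, and a miRNA was called at a Benjamini-Hochberg adjusted p under 0.05. miR-429-5p passed the filter on low counts through its epididymal libraries alone, so that it had to differ, and it is described apart. The other 8 members passed the looser filter of the testis' own season comparison. miR-141-5p and miR-200b-5p, with 0 counts in some testis libraries, met the filter of the tissue comparisons only through epididymal libraries. Counts and medians of 8 members below include both strands, whose calls are no support of their own. In the caput these 8 members were all higher than in the testis, with log2 changes from 5.47 to 7.23 and a median of 6.53, beside a median of 0.23 over the 414 miRNAs tested. Of those 414, 221 (53.4%) were called in either direction and 127 (30.7%) were higher. In the cauda the 8 members were also all higher than in the testis, with log2 changes from 4.51 to 6.61 and a median of 5.25, beside 0.20 over the 451 tested. Of those 451, 243 (53.9%) were called and 138 (30.6%) were higher. Both comparisons use the same testis libraries.

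By strand, miR-200b-3p was higher by a log2 change of 7.23 (SE 0.99, edgeR adjusted p = 0.000346) in the caput and 6.61 (SE 0.86, adjusted p = 0.000119) in the cauda. Its change was the 7th highest of 414 in the caput and the 8th highest of 451 in the cauda. miR-200c-3p, from the other cluster with the same seed, had the smallest adjusted p of the family: 6.95 (SE 0.70, edgeR adjusted p = 9.11e-05) in the caput and 6.38 (SE 0.53, adjusted p = 9.04e-06) in the cauda. miR-141-5p, one of the scarcer strands, had the smallest change in both, 5.47 (SE 1.08) and 4.51 (SE 0.93). Without it and miR-200b-5p the smallest was that of miR-200a-5p, 5.71 (SE 1.17) in the caput and 4.63 (SE 0.94) in the cauda. The 8 members ranked between the 7th and the 21st highest change in the caput and between the 8th and the 35th in the cauda.

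Because miR-429-5p was nearly absent from the testis, its fitted log2 change (7.37 in the caput and 7.30 in the cauda) depends on the prior count and is no support for the family's difference. Pooled over libraries it had 427 counts among 53389224 in the caput and 547 among 50475106 in the cauda, against 1 among 17176113 in the testis. That is a ratio of 137 for the caput, with an exact 95% counting interval of 24.5 to 5438, and 186 for the cauda, with an interval of 33.3 to 7365.

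The size of these differences changed with the libraries used. Without TESTIS-NR 1, the library with few germ cell miRNAs, the 8 members were called in both comparisons with log2 changes of 6.63 to 8.14 in the caput and 5.42 to 7.28 in the cauda. With any other single library left out all 8 were also called, and the medians ran from 5.75 (without TESTIS-R 3) to 6.97 in the caput and from 4.65 (without TESTIS-NR 3) to 5.32 in the cauda. Medians over 1.5 times lower on the linear scale also came without TESTIS-R 2 or CAPUT-R 1 in the caput (5.92 each) and without CAUDA-R 3 or TESTIS-R 3 in the cauda (4.66 each). The median of all miRNAs fell in these fits too. In the caput it was -0.19 without TESTIS-R 2 and -0.48 without CAPUT-R 1, against 0.23 with all libraries. For the cauda it was -0.33 without CAUDA-R 3 and -0.08 without TESTIS-R 3, against 0.20. Within the reproductive season 8 of 8 were called in each comparison, with medians of 7.09 and 5.62. Over all miRNAs 238 of 467 were called there in the caput and 231 of 476 in the cauda. Within the non-reproductive season, with 2 testis libraries, 0 of 8 were called in the caput by edgeR (lowest adjusted p = 0.0925, 4 of 8 with an unadjusted p under 0.05, and 0 of 433 miRNAs called in all, 142 of them with an unadjusted p under 0.05). In the cauda 3 of 8 were called, beside 144 of 481 miRNAs in all. The medians of that season were 5.26 and 4.95.

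**Figure D3:**
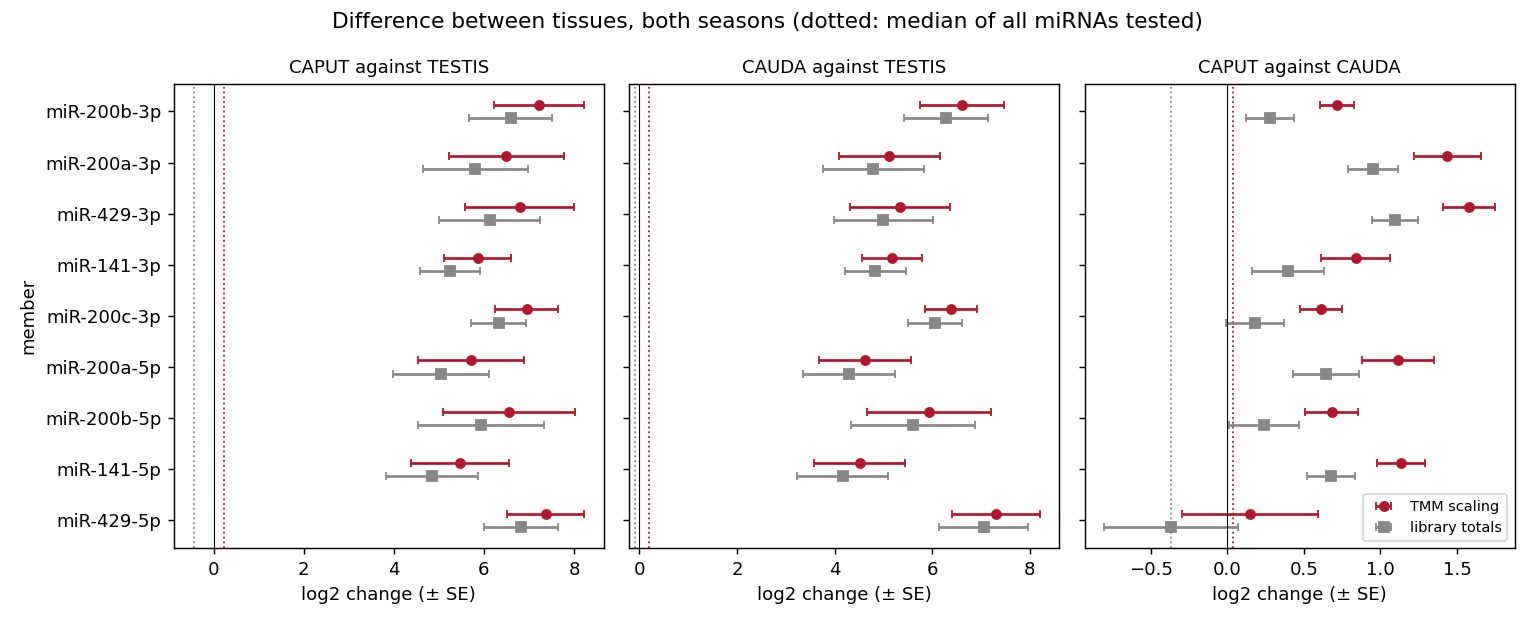
Fitted log2 change of each member (points, with bars of 1 SE) for caput against testis, cauda against testis and caput against cauda, under TMM scaling (circles) and under scaling by library totals (squares); dotted lines are the median of all miRNAs tested. Against the testis every member lies between 4.17 and 7.37, while between the segments library totals move the members left by about as much as they move the median of all miRNAs, to -0.37.

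Lists for other cell types were also compared with the testis. Of all miRNAs tested, 127 of 414 were higher and 94 lower in the caput, and 138 of 451 higher and 105 lower in the cauda. An epithelial list outside the family, with entries for miR-203, miR-205, miR-183, miR-96, miR-182, miR-375, miR-192, miR-194 and miR-215, had 11 entries tested in the caput, of which 9 were higher than in the testis and 0 lower, with a median log2 change of 3.77. In the cauda 10 were tested, of which 6 were higher and 2 lower, with a median of 3.88. miR-205-5p, known from basal cells of stratified and ductal epithelia, averaged 7148 CPM in the caput and 12125 CPM in the cauda, against 181 CPM in the testis. The striated muscle list had 3 of 4 tested entries higher in the caput (median 2.54) and 5 of 5 in the cauda (median 4.87, above that of the epithelial list). Of the leukocyte list 4 of 6 were higher in the caput and 6 of 6 in the cauda, and of the mesenchymal and smooth muscle list 4 of 10 and 9 of 10. The endothelial list had 1 of 2 and 2 of 2 higher, and the erythrocyte list 1 of 4 and 2 of 4. Summed levels of the epithelial list were 11560 to 18338 CPM in the caput and 18359 to 32223 CPM in the cauda, against 999 to 1717 CPM in the testis. Those of the leukocyte list were 1135 to 3133 CPM in the caput and 2097 to 8924 CPM in the cauda, against 501 to 1594 CPM in the testis, and those of the striated muscle list 179 to 927 CPM and 3235 to 8158 CPM, against 93.1 to 1052 CPM. The part of these cell types in the family's difference from the testis was not tested. The list for germ and ciliated cells had 5 entries tested, of which 3 were lower in caput and 2 lower in cauda than in testis.

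The second comparison set caput against cauda, the segment that sperm enter first against the one where they are stored. Of the 9 members 8 were higher in the caput, with a median log2 change over the 9 of 0.84, beside 0.04 over the 456 miRNAs tested. Of those 456, 147 (32.2%) were called and 85 (18.6%) were higher. miR-429-3p had the largest change at 1.58 (SE 0.17, edgeR adjusted p = 0.000113), and miR-200a-3p followed at 1.44 (SE 0.22, adjusted p = 0.000671). miR-141-5p and miR-200a-5p were higher by 1.13 (SE 0.16) and 1.11 (SE 0.23). miR-141-3p differed by 0.84 (SE 0.23), miR-200b-3p by 0.72 (SE 0.11), miR-200b-5p by 0.68 (SE 0.17) and miR-200c-3p by 0.61 (SE 0.14). miR-429-5p, at 0.15 (SE 0.44, edgeR adjusted p = 0.814), was not called.

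Part of this result changed with the scaling of the libraries. With library totals in place of TMM the median of all miRNAs moved to -0.37, and calls over all miRNAs changed to 45 higher and 105 lower, against 85 higher and 62 lower under TMM. Then 4 of the 9 members were called: miR-429-3p at 1.10, miR-200a-3p at 0.95, miR-141-5p at 0.68 and miR-200a-5p at 0.64. miR-200b-3p was at 0.28 (SE 0.16, edgeR adjusted p = 0.213), and miR-141-3p, miR-200b-5p and miR-200c-3p lay between 0.18 and 0.40. Relative to the median of all miRNAs, miR-429-3p was 1.46 and miR-200a-3p 1.32 above it, and miR-200b-3p 0.64. miR-429-5p changed sign, to -0.37.

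Against the testis the 8 members were called and higher in both comparisons under library totals too, with log2 changes of 4.85 to 6.59 in the caput and 4.17 to 6.28 in the cauda. The median of all miRNAs moved to -0.44 and -0.09. Calls over all miRNAs changed to 90 higher and 136 lower in the caput, against 127 higher and 94 lower under TMM, and to 124 higher and 128 lower in the cauda, against 138 higher and 105 lower.

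Taken by season, caput exceeded cauda in fewer calls, in the family and over all miRNAs. In the reproductive season 4 of 9 members were called by edgeR, namely miR-429-3p (1.43), miR-200a-3p (1.40), miR-141-5p (0.98) and miR-200b-5p (0.78). Over all miRNAs 84 of 484 were called in that season, 48 of them higher. In the non-reproductive season 3 were called, namely miR-429-3p (1.66), miR-200a-3p (1.37) and miR-200b-3p (0.81), beside 51 of 476 miRNAs in all, 30 of them higher. miR-429-5p was at -0.44 in the reproductive season and 0.75 in the non-reproductive season, and the other members had positive values in both. When the testis libraries entered the same fit, 0 of 9 were called (0 with an unadjusted p under 0.05), beside 82 of 784 miRNAs in all. The changes of the members were alike (0.05 to 1.56) and the SE larger, for miR-200b-3p 0.58 in place of 0.11. Calls for miR-141-3p and miR-200b-5p were also lost without CAPUT-NR 3 or without CAUDA-R 3, and that for miR-141-3p without CAPUT-R 3 (edgeR adjusted p from 0.0581 to 0.0783). Without CAPUT-R 2, the library high in endothelial and erythrocyte miRNAs, 8 of 9 were called, with changes of 0.23 to 1.59 over the 9. With equal replicate numbers of a season treated as 1 animal, 4 of 9 were called, beside 81 of 456 miRNAs in all. The changes of the 9 were then 0.18 to 1.52.

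Markers of some other cell types differed between the segments as well, where 85 of all 456 miRNAs tested were higher and 62 lower in the caput. The list for mesenchymal and smooth muscle cells (miR-143, miR-145a, miR-199a, miR-199b and miR-214 entries) had 10 entries tested, of which 5 were lower in the caput than in the cauda and 0 higher. Its summed level was 11577 to 22087 CPM in the caput and 40035 to 52127 CPM in the cauda. All 5 tested entries of striated muscle miRNAs were lower in the caput. The leukocyte, erythrocyte and endothelial lists had 6, 5 and 2 entries tested, of which 0 were called. Of 5 entries for germ and ciliated cells 1 was higher and 0 lower. Of 11 other epithelial entries 4 were higher and 1 lower in the caput, and their summed level was lower in every caput library than in every cauda library. The part of these cell types in the family's difference was not tested. miR-199a-3p and miR-199b-3p carried identical counts, so their reads cannot be told apart.

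Because a ratio of 2 members within a library needs no scaling, ratios give a view that does not depend on it. The ratio of miR-429-3p to miR-200b-3p, members of 1 cluster with the same seed, was 0.0471 to 0.0881 in the caput and 0.0350 to 0.0445 in the cauda, with no overlap. The ratio of miR-200a-3p to miR-200b-3p was 0.240 to 0.339 in 4 caput libraries and 0.133 in CAPUT-R 2, against 0.126 to 0.204 in the cauda. Both ratios were chosen after their values were seen and carry no test. Relative to miR-200b-3p, CAPUT-R 2 had the lowest miR-200a-3p and miR-429-3p of the caput libraries.

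For 5 other ratios the tissues were compared with a two-sided exact permutation test, 15 tests in all, of which 0 were called after Benjamini-Hochberg adjustment and 2 had an unadjusted p under 0.05. The 2 were those of the miR-200a strands. Their 3p to 5p ratio was 4.15 to 14.4 in the caput and 3.74 to 10.8 in the cauda, against 2.58 to 5.28 in the testis. On the log2 scale it was higher by 1.04 in the caput (exact permutation p = 0.0317, adjusted p = 0.238) and by 0.82 in the cauda (exact permutation p = 0.0238, adjusted p = 0.238) than in the testis, where the smallest p these designs allow is 0.00794 and 0.00216.

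Strand bias differed strongly between hairpins. The 3p strand exceeded the 5p strand 131 to 256 times for miR-200b in the epididymis, 8.28 to 22.6 times for miR-141 and 3.74 to 14.4 times for miR-200a. Across clusters within a seed group, miR-200c-3p was 0.0372 to 0.0561 times miR-200b-3p in the epididymis, and miR-141-3p was 0.159 to 0.537 times miR-200a-3p. Between caput and cauda these 2 ratios differed by -0.13 (exact permutation p = 0.268, adjusted p = 0.509) and -0.52 (exact permutation p = 0.0996, adjusted p = 0.395) on the log2 scale.

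**Figure D4:**
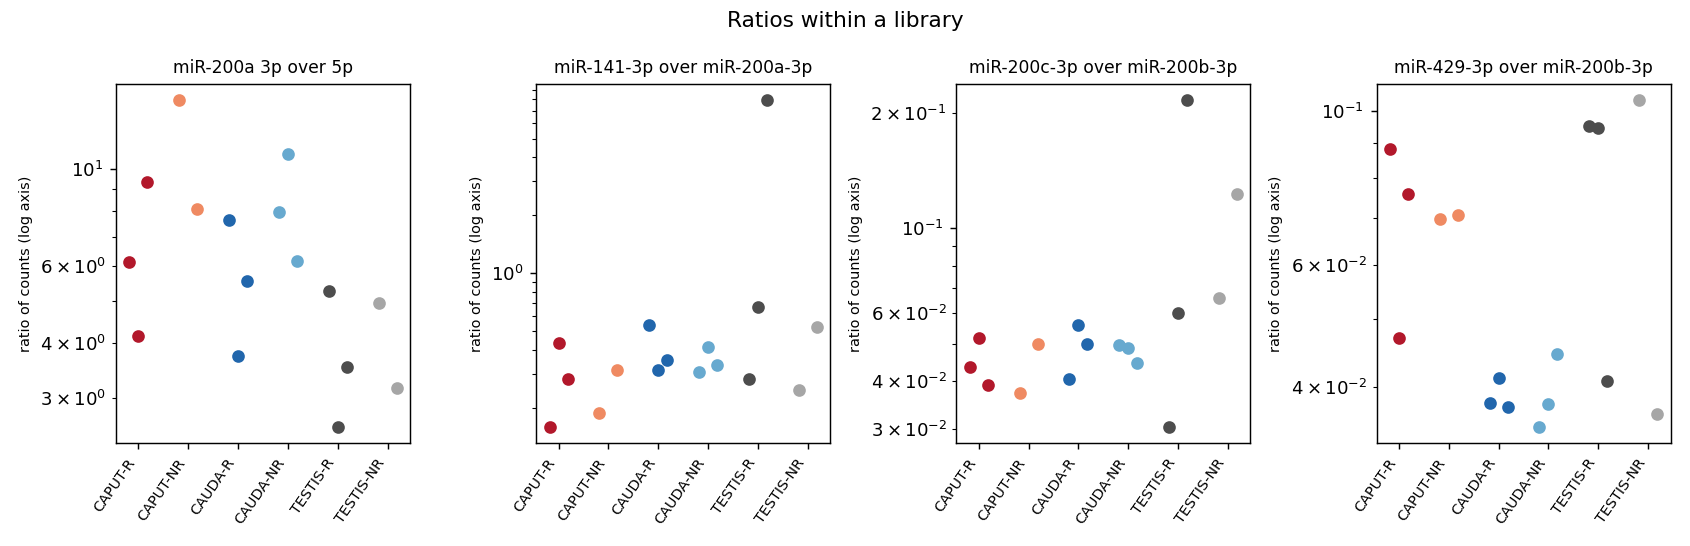
Ratios of counts between members within each library, on log axes, for the miR-200a strands, for miR-141-3p over miR-200a-3p, for miR-200c-3p over miR-200b-3p and for miR-429-3p over miR-200b-3p. The last splits caput (0.0471 to 0.0881) from cauda (0.0350 to 0.0445), and the point far above the others in the second panel is TESTIS-R 3 at 7.94.

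The third comparison set the reproductive against the non-reproductive season within each tissue, which is the study's own contrast. In the caput 0 of 9 members were called by edgeR, as were 0 of the 534 miRNAs tested (0%; 24 had an unadjusted p under 0.05, none of them a member, and DESeq2 called 15, also without a member). Fitted changes of the members ran from -0.20 to 0.63 with a median of 0.03, beside 0.10 over all tested. miR-200b-3p, with group means of 72897 ± 16859 CPM in CAPUT-R (SD, n = 3) and 67256 ± 3982 CPM in CAPUT-NR (SD, n = 2), differed by 0.03 on the log2 scale, with an interval of 2 SE from -0.29 to 0.34. The largest values were 0.63 for both miR-200b-5p (SE 0.28, unadjusted p = 0.074, edgeR adjusted p = 0.775) and miR-200a-5p (SE 0.38).

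In the cauda 0 of 9 members were called, where edgeR called 14 of 455 miRNAs (3.08%). No member had an unadjusted p under 0.05, and DESeq2 called 53 miRNAs and 1 member. Changes of the members ran from -0.23 to 0.84 with a median of 0.17, beside 0.05 over all tested. The member DESeq2 called was miR-141-5p, with 264, 252 and 230 CPM in CAUDA-R, against 212, 167 and 217 CPM in CAUDA-NR. Its groups did not overlap, and its change was 0.37 (SE 0.15, edgeR adjusted p = 0.291) with edgeR and 0.38 (adjusted p = 0.0481) with DESeq2. miR-200a-3p was at -0.23 (SE 0.17), miR-200b-3p at 0.16 (SE 0.15, interval of 2 SE from -0.15 to 0.46) and miR-429-5p at 0.84 (SE 0.57).

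In the testis 8 of the 9 members passed the filter on low counts, miR-429-5p being the exception, and 0 were called. edgeR called 0 of 496 miRNAs (0%; 36 had an unadjusted p under 0.05, none of them a member), and DESeq2 called 24 and no member. Changes ran from -1.31 to 0.12 with a median of -0.77, and the intervals were wide: miR-200b-3p was at -0.59 (SE 1.36, interval of 2 SE from -3.32 to 2.14) and miR-200c-3p at -1.27 (SE 0.80). A single library set the sign. Without TESTIS-NR 1 the median was 2.42 with 8 of 8 members positive, and without TESTIS-NR 3 it was -1.75 with 0 of 8 positive.

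Differences between the season changes of the tissues were tested as interactions with all 16 libraries in 1 edgeR fit of 784 miRNAs. Caput minus testis called 0 members among 0 miRNAs called (0%; 60 had an unadjusted p under 0.05, and DESeq2 called 24 with no member). Cauda minus testis called 0 members among 1 miRNA called (0.128%; 76 had an unadjusted p under 0.05, and DESeq2 called 32 with no member), and caput minus cauda called 0 members among 0 called (0%; 27 had an unadjusted p under 0.05, none a member, and DESeq2 called 17 with no member). The 1 member with an unadjusted p under 0.05 in the first 2 was miR-200c-3p, at 1.74 (unadjusted p = 0.0396, edgeR adjusted p = 0.632) and 1.76 (unadjusted p = 0.0278, adjusted p = 0.444). Without TESTIS-NR 1 it was at 0.04 and 0.06.

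Among the testis libraries, levels of the family crossed the seasons. Their sums were 2237, 812 and 210 CPM in TESTIS-R and 3558 and 282 CPM in TESTIS-NR. The list of other epithelial miRNAs ran with a narrower span, 1701, 1473 and 1234 CPM in TESTIS-R and 1717 and 999 CPM in TESTIS-NR. Striated muscle miRNAs summed to 93.1 to 102 CPM in TESTIS-R, against 164 CPM in TESTIS-NR 1 and 1052 CPM in TESTIS-NR 3. TESTIS-NR 1 had the highest family level and the lowest germ cell list, and TESTIS-R 3 had the lowest family level and a high germ cell list. The order was not inverse throughout. TESTIS-NR 3 was below TESTIS-R 1 in both, with 282 against 2237 CPM of the family and 4704 against 5713 CPM of the germ cell list. The part of these cell types in the family's spread was not tested.

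**Figure D5:**
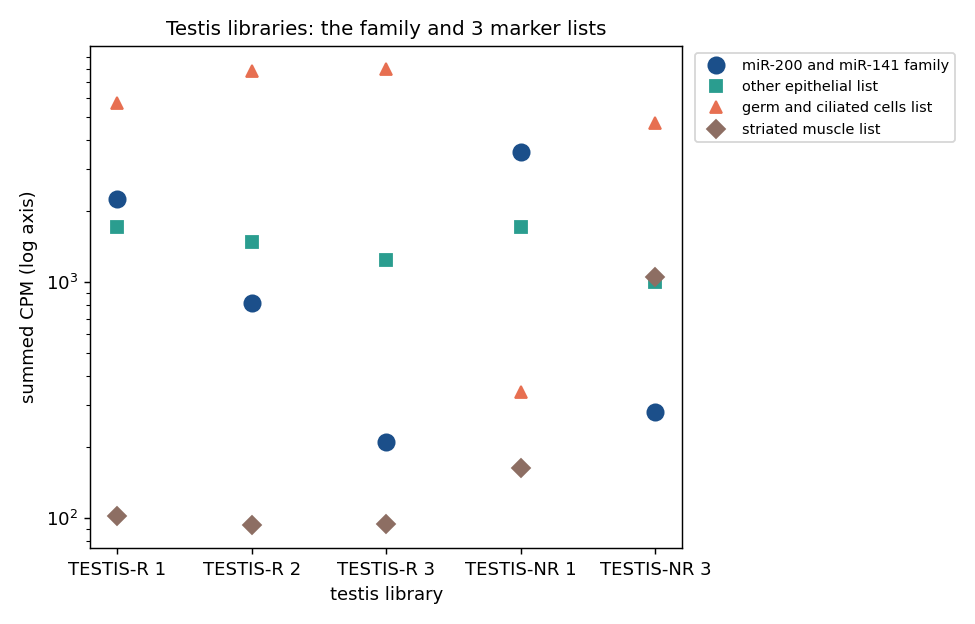
Summed CPM, on a log axis, of the family and of the lists of other epithelial, germ and ciliated cell, and striated muscle miRNAs in the 5 measured testis libraries. The family spans 210 to 3558 CPM across both seasons while the other epithelial list stays between 999 and 1717 CPM.

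The make-up of the family also varied in the testis. In TESTIS-R 3, miR-141-3p held 46.2% of family counts and exceeded miR-200b-3p, with 96.9 against 73.4 CPM, and its ratio to miR-200a-3p was 7.94. In the other testis libraries that ratio was 0.246 to 0.666. The family had only 455 counts in TESTIS-R 3, against 999 to 13928 in the other testis libraries.

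Members correlated more closely over all tissues than within the epididymis. Over the 16 libraries the Spearman correlation between pairs of members was 0.622 to 0.935 with a median of 0.828. Over the 11 epididymal libraries it was -0.136 to 0.800 with a median of 0.473, the highest being that of miR-200a-3p with miR-429-3p. These values describe libraries that share depth and tissue groups.

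Of 216 other mouse-named miRNAs with a mean of at least 10 CPM, those most like the summed family over the 16 libraries were miR-200c-5p (Spearman 0.912), miR-10a-5p (0.903), miR-148b-3p (0.891), miR-10a-3p (0.885) and miR-148a-3p (0.879). miR-200c-5p, the partner strand of miR-200c-3p, averaged 49.8 CPM in the caput, 15.4 CPM in the cauda and 0.379 CPM in the testis. Its fitted log2 change was 2.22 (SE 0.35) in the caput against the cauda. As it was named for its likeness to the family over the same libraries, this difference is not independent of that choice. Over the 11 epididymal libraries the most alike were miR-148b-3p (0.945), miR-194-5p (0.927), miR-135a-5p (0.909), miR-192-5p (0.900) and miR-339-5p (0.891). miR-135a-5p and the neighbours miR-192-5p and miR-194-5p differed between the segments far more than the family did, with 15807, 326 and 541 CPM in the caput, against 421, 14.7 and 45.3 CPM in the cauda.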

How the data were processed

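Per the labels' protocols, TRIzol total RNA (RNA integrity number of at least 7) was read as small RNA with single reads of 50 nt. The deposited miRNA table holds raw counts per entry and column with no normalization by the authors; featureCounts and bedtools are named, per the submitters' processing notes. An aligner, a build and tool versions are not given in the notes or labels. Gene, piRNA and cluster tables were not used. Entries whose prefix marks them as new (719 of 1210) stayed in library totals and fits.

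The members, lists and tests were chosen with earlier results of these data known. Levels are CPM of a column's miRNA total. Differences were tested with edgeR 4.0.16 in R 4.3.3 (TMM, filterByExpr, quasi-likelihood), with p-values adjusted over all miRNAs tested; only the libraries compared entered a fit, except in interactions. Tissue fits had season as a covariate. Changes are log2 with SE. Ratios had 0.5 counts added to both terms. Alternatives were library totals or DESeq2 size factors, no filter, DESeq2 1.42.0, averaged columns kept, 1 fit for all libraries, each season alone, a replicate block and leaving out each library; for ratios, 1 count added. Named besides the members were the 5 miRNAs with the highest Spearman correlation of log2(CPM + 1) with the family's sum, over all and over epididymal libraries, and up to 4 entries per marker list with the highest mean. edgeR and the permutation test were tested on simulated data. Total counts of 2166152 to 14756858 set the precision; the 2 averaged columns were left out of every test.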

Additional observations from a re-analysis of the deposited data

Results flagged for a closer look

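One entry outside the family's rule carried a signal of its own. An entry whose prefix marks it as new and whose name refers to miR-141-5p of another species had 4348, 3889 and 5287 CPM in TESTIS-R and 3875 and 2055 CPM in TESTIS-NR, with a testis median of 3889 CPM. In the epididymis it had 55.5 to 200.3 CPM in the caput and 38.6 to 429.1 CPM in the cauda. It was thus high where mouse-named miR-141-5p was low (0 to 24.3 CPM in the testis), and low where that was high. Its sequence was not analysed here, so whether the entry is related to miR-141-5p was not tested.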

How the results depend on the processing

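Counts of members or ratios called were within 1.5 times of those reported in 180 of 190 alternatives, and in 10 they were not. For caput against cauda, 8 of 9 became 4 with library totals, 4 with a replicate block (without miR-141-3p, miR-200a-5p, miR-200b-5p and miR-200c-3p, adjusted p 0.0566 to 0.102), 0 with all 16 columns in 1 fit, 4 in the reproductive season alone and 3 in the non-reproductive season alone, while no filter and leaving out 1 library gave 6 and 6 to 8. Against the testis, the 8 members other than miR-429-5p were all called in both segments. In the non-reproductive season alone these 8 became 0 in the caput and 3 in the cauda. Leaving out any 1 library kept 8 in both. DESeq2 called 1 member for R against NR in the cauda. Leaving out 1 library gave 0 to 1 members for the season change of caput minus testis and 0 to 1 for cauda minus testis; the 1 was miR-141-5p without TESTIS-NR 1, at -8.81 and -8.76, which rests on its 0 counts in TESTIS-NR 3. Over all miRNAs, the replicate block called 81 in caput against cauda in place of 147 and 0 in the cauda's season comparison in place of 14.

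Of the changes given one by one in the text, 4 turned sign under some alternative, beside the testis' season changes without TESTIS-NR 1 given above. miR-429-5p in caput against cauda was at -0.37 with library totals and -0.44 in the reproductive season alone, and from -0.26 to 0.38 with 1 library left out. miR-200b-3p in the caput's season comparison ran from -0.0039 to 0.048 with 1 library left out. In the testis' season comparison, leaving out 1 library gave -1.76 to 1.50 for miR-200b-3p and -1.98 to 0.056 for miR-200c-3p, with the positive values coming without TESTIS-NR 1. The cause was not tested. Where leaving out a library leaves 1 in a group, that one is assumed to vary like the others.

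Whether replicate numbers pair the libraries was not settled. Correlations of same-numbered deviations over 325 miRNAs ran from -0.155 to 0.401. Those of the 5 caput and cauda pairs were all positive, from 0.082 to 0.219, and below 0.1 for 3 of them. The deviations are from means of 2 or 3 libraries, so low values cannot exclude pairing. In CAPUT-R with CAUDA-R 6 of 6 libraries correlated best with their own number, a hint from the data and not the design, against 2, 1 and 2 of 6 in the other 3 pairs of groups with 3 libraries each. With the replicate block no member was called in any season or interaction comparison. Against the testis it called all 8 members other than miR-429-5p. The 15 ratio tests called 0 under every alternative run. With 2 or 3 libraries a group, and 455 to 13928 family counts in a testis library, intervals of 2 SE around a season change in the testis reached 4.99 on either side.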
